A study of Saccharomyces cerevisiae with 6 samples.

Results

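The external transcribed spacer 1 (ETS1) is the stretch of the yeast rDNA that RNA polymerase I (Pol I) transcribes first, and it was taken here as positions 1 to 700 of the 35S gene. Position 1 is the annotated start site, at coordinate 467569 of chromosome XII in the R64 build, and position 700, at 466870, is the last base before 18S. The gene runs against the chromosome's numbering, so that positions increase as coordinates fall. These 700 positions are 700 of the 6739 between the start site and the first terminator, T1, and they are set by place alone, though ETS1 was picked for description with earlier results of these data known. NET-seq, which locates elongating polymerases from the 3′ ends of the RNA they hold, was performed on 3 libraries of an *rpa12Δ* strain of *Saccharomyces cerevisiae*, which carries a full deletion of *RPA12*, and on 3 libraries of the WT strain it was derived from. Both strains carry an HA tag on Rpa135, the second largest Pol I subunit, through which Pol I was immunoprecipitated, and both were grown in rich medium (YEPD) to early log phase. The study's text calls the replicates biological, while the labels only number them and name no cultures, and p-values measure the spread between these libraries.

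ETS1 RNA is part of the primary 35S transcript but of no ribosome. While the transcript is still being made, the ETS1 RNA pairs with the U3 small nucleolar RNA and carries the first proteins of the small subunit processome, and it is then cut at site A0 and at site A1, the 5′ end of 18S, and degraded. *RPA12* encodes A12.2, the Pol I subunit that is needed for the polymerase's own cleavage of the nascent RNA and that also acts in elongation and termination. Pol I does not move at an even rate, and positions where it dwells collect more read ends. An RNA 3′ end left by cleavage and an RNA 3′ end in the active site of Pol I cannot be told apart in these reads.

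The *rpa12Δ* libraries were the deeper ones. They held 14634449, 13588526 and 13609990 reads, against 6755222, 5234478 and 4344302 in WT, and 3944710 to 4312851 ends in the 35S copy counted here, against 1404091 to 2214993 in WT. Occupancy is given in RPM, the number of read ends at a position per 1000000 ends of the same library between the start site and T1, and 1 end equalled 0.232 to 0.254 RPM in *rpa12Δ* and 0.451 to 0.712 RPM in WT. As a check of the labels, 0, 0 and 1 reads lay in *RPA12* in the *rpa12Δ* libraries and 8, 9 and 4 in the WT libraries. Every ETS1 read had a mapping quality of 0, as reads that fit several rDNA copies do, and the copy counted here took 49.9 to 50.0% of the ETS1 ends of both annotated copies in *rpa12Δ* and 49.8 to 50.2% in WT. The reads therefore show an average over the rDNA repeats.

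ETS1 carried a larger part of the 35S read ends in *rpa12Δ* than in WT. ETS1 held 315230, 359886 and 368885 read ends in the *rpa12Δ* libraries, which was 7.31, 9.12 and 9.22% of their 35S ends. In the WT libraries it held 64008, 53604 and 44280 ends, which was 2.89, 3.17 and 3.15%. The libraries of the strains did not overlap, with means of 8.55 ± 1.08% in the *rpa12Δ* libraries and 3.07 ± 0.158% in the WT libraries (n = 3 each, SD), a log2 difference of 1.48 (two-sided exact permutation test, p = 0.1, the smallest that 3 libraries against 3 can give). After all libraries were thinned to 1404091 35S ends, the log2 difference was 1.47. Since these are shares of 35S ends, more signal in ETS1 and less signal further along the gene cannot be told apart. The 35S ends also include those within 5 nt of the mature rRNA 3′ ends. With these left out of the denominator, the mean shares were 10.2% in *rpa12Δ* and 4.10% in WT. That was a log2 difference of 1.31 (exact permutation test, p = 0.1).

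The excess lay along the whole of ETS1. ETS1 was divided into 14 windows of 50 nt, and all 14 were higher in *rpa12Δ* at an adjusted p under 0.05 (limma on log2 occupancy, adjusted over the 134 windows of the 35S gene), while 48.5% of all windows of the gene were called higher and 18.7% lower. The log2 differences had a median of 1.53, against 0.21 over all windows of the gene. The change was largest in positions 651 to 700, the stretch next to 18S. Their summed occupancy was 1406, 1712 and 1972 RPM in *rpa12Δ*, against 302, 328 and 359 RPM in WT, a log2 difference of 2.35 (SE 0.13, adjusted p = 1.48e-12). Of the window's means, 1696 RPM in *rpa12Δ* and 330 RPM in WT, positions 696 to 700 alone held 815 and 67.0 RPM. The window was not compared without them. The change was smallest in positions 501 to 550, with 3331, 2685 and 3475 RPM in *rpa12Δ*, against 1427, 1575 and 1493 RPM in WT, a log2 difference of 1.07 (SE 0.10, adjusted p = 3.04e-09). In both of these windows, as in the other 12, no *rpa12Δ* library overlapped a WT library.

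**Figure D1:**
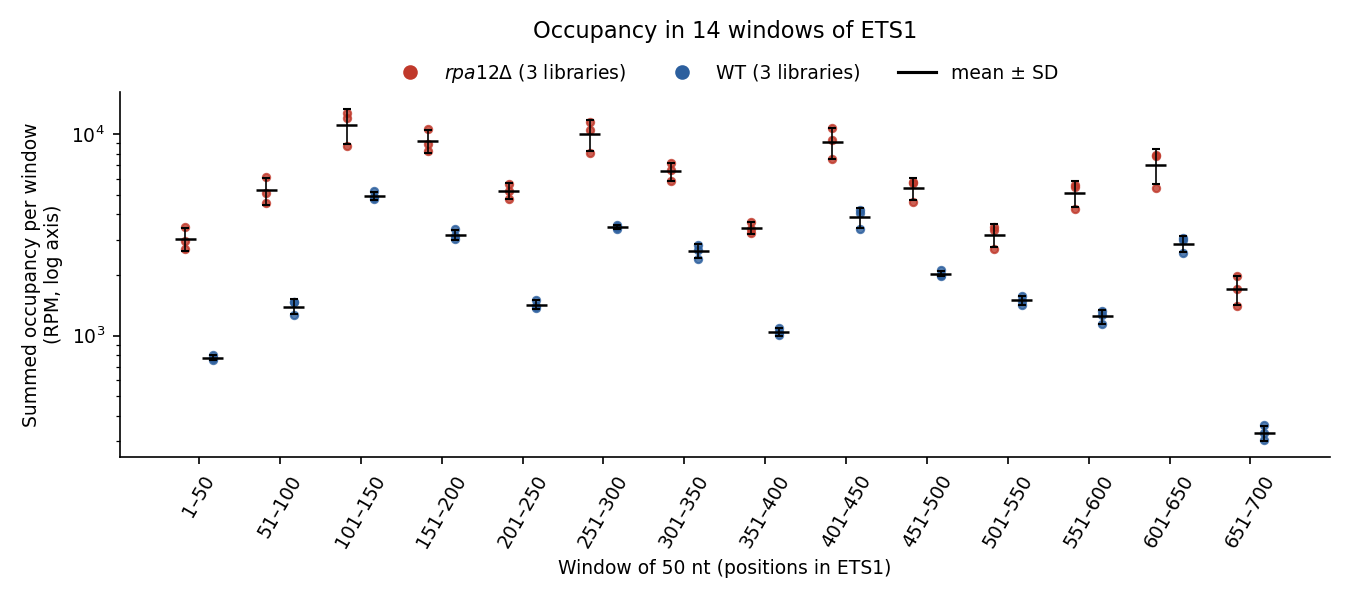
Summed occupancy of each 50 nt window of ETS1 in RPM (vertical log axis) against the window's positions, with *rpa12Δ* libraries in red to the left of WT libraries in blue, and black bars for the mean ± SD of 3 libraries. The *rpa12Δ* points lie above the WT points in all 14 windows, with the widest gap in positions 651 to 700 (5.14-fold) and the narrowest in positions 501 to 550 (2.11-fold). In positions 651 to 700, the last 5 positions held 815 of 1696 RPM in *rpa12Δ* and 67.0 of 330 RPM in WT.

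Both strains had the same coarse profile, with the most signal in positions 101 to 150 and the least in positions 651 to 700. Positions 101 to 150 averaged 11167 RPM in *rpa12Δ* and 4946 RPM in WT. As a share of the library's own ETS1 ends, 9 of the 14 windows did not overlap between strains, 5 of them higher in *rpa12Δ* and 4 lower. When every stretch of 700 nt of the 35S gene was treated in this way, 39.7% of the windows were higher without overlap and 22.2% lower, so that ETS1 was near the rest of the gene in this. The windows with a larger share in *rpa12Δ* were positions 1 to 50, 51 to 100, 201 to 250, 551 to 600 and 651 to 700. Positions 551 to 600, for example, took 5.96 ± 0.138% of the ETS1 ends in *rpa12Δ* and 4.05 ± 0.133% in WT (n = 3 each, SD). The windows with a smaller share were positions 101 to 150, 301 to 350, 501 to 550 and 601 to 650. Positions 101 to 150 took 12.98 ± 1.00% in *rpa12Δ* and 16.1 ± 0.559% in WT. Each of these comparisons gave p = 0.1 in the exact permutation test.

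The median position of the ETS1 ends was 296, 293 and 292 in *rpa12Δ* and 295, 305 and 318 in WT. The strains overlapped, with a difference of −12.3 nt between the means (exact permutation test, p = 0.2). Without the 10 highest positions the difference was −32.7 nt (exact permutation test, p = 0.1), without WT replicate 1 it was −17.8 nt and without WT replicate 3 −6.33 nt. The fewest positions that together held 50% of the ends numbered 59, 52 and 50 in *rpa12Δ* and 43, 44 and 46 in WT, means of 53.7 ± 4.73 and 44.3 ± 1.53 (n = 3 each, SD, exact permutation test, p = 0.1). The signal was therefore spread over more positions in every *rpa12Δ* library. At a common depth the difference was 8.67 positions, against 9.33 at full depth. With the 10 highest positions left out, the difference was 6.67 positions (exact permutation test, p = 0.2).

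At single positions the shift covered most of ETS1. The median occupancy of the 700 positions was 43.1, 46.0 and 43.9 RPM in the *rpa12Δ* libraries and 12.9, 14.8 and 14.96 RPM in the WT libraries. A mean of at least 100 RPM was reached at 203 positions in *rpa12Δ* and at 66 in WT, and a mean of at least 1000 RPM at 10 in *rpa12Δ* and 2 in WT. A mean under 10 RPM was found at 87 positions in *rpa12Δ* and at 286 in WT. Over all 700 positions, the *rpa12Δ* libraries lay wholly above the WT libraries at 615, wholly below at 1 and overlapped at 84, while over all 6739 positions of the gene 43.3% lay wholly above and 13.7% wholly below. At 3 positions no library had a read end.

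The test was limited to positions that averaged 10 RPM or more over the 6 libraries, which 564 ETS1 positions did and 136 did not. Of the 564, 151 had a WT mean under 10 RPM and passed through the *rpa12Δ* libraries, so that they had to be higher there. Occupancy was called higher in *rpa12Δ* at 516 positions and lower at 1, with 47 not called (limma, adjusted over the 6357 positions tested in the gene). Over the whole gene, 37.9% of tested positions were called higher and 11.0% lower. The log2 differences in ETS1 lay between −0.92 and 5.15 with a median of 1.49, against a median of 0.25 over the gene. Among the other regions, the share of tested positions called higher was 44.6% in 18S, 72.2% in ITS1, 71.9% in ITS2, 72.0% in ETS2, 21.1% in 25S and 18.8% in 5.8S.

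**Figure D2:**
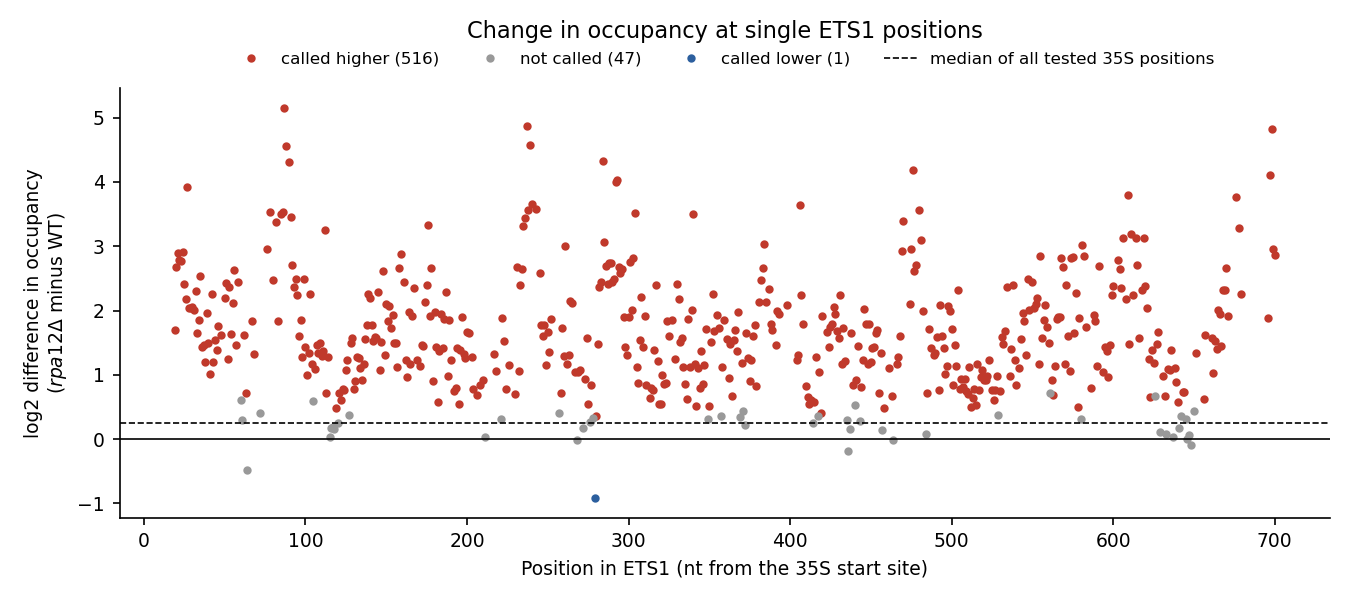
Log2 difference in occupancy (*rpa12Δ* minus WT, vertical axis) at each of the 564 tested positions against the position in ETS1, with red points called higher, grey points not called and a blue point called lower. The points lie above the dashed line of the gene's median, 0.25, over the whole length of ETS1 with few exceptions, and the single blue point is position 279.

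These read ends included many copies of the same interval. Distinct intervals made up 6.28 to 7.77% of the ETS1 ends in *rpa12Δ* and 19.2 to 25.1% in WT. This share falls as ends are added, and it was not taken at a common depth. The *rpa12Δ* libraries held 315230 to 368885 ETS1 ends, against 44280 to 64008 in WT. When each interval was counted once, the log2 difference of the ETS1 share was 0.56 in place of 1.48, with the strains still apart. Counted in this way, positions 102 and 405 were lower in *rpa12Δ*, by −0.38 and −0.30 on the log2 scale, and so were most positions of the highest occupancy, no pause was found in either strain, and the pause index of all 7 pauses found only in *rpa12Δ* was lower there, by −0.41 to −1.13. The occupancy of position 279 was still lower in *rpa12Δ*. Of 682 positions tested in this way, 499 were called higher and 28 lower, against 516 and 1 of the 564 tested before. That count cannot pass the number of read lengths at a position, which the positions of highest occupancy come close to, so PCR copies and separate molecules of the same interval cannot be told apart. Their part in the difference was not tested.

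Within each strain the profile along ETS1 was alike in all libraries. Spearman's rho over the 700 positions was 0.968 to 0.977 between *rpa12Δ* libraries and 0.965 to 0.971 between WT libraries, and 0.847 to 0.892 between the strains. These values are across positions, which are not independent replicates and share the libraries and the template. The 10 positions of highest occupancy held 21.3 ± 1.46% of ETS1 ends in *rpa12Δ*, where they were 102, 405, 175, 260, 163, 232, 292, 283, 339 and 407. Those of WT, 102, 405, 279, 163, 232, 260, 336, 437, 497 and 622, held 24.9 ± 0.321% in WT (n = 3 each, SD). The lists share 5 positions, 102, 163, 232, 260 and 405.

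**Figure D3:**
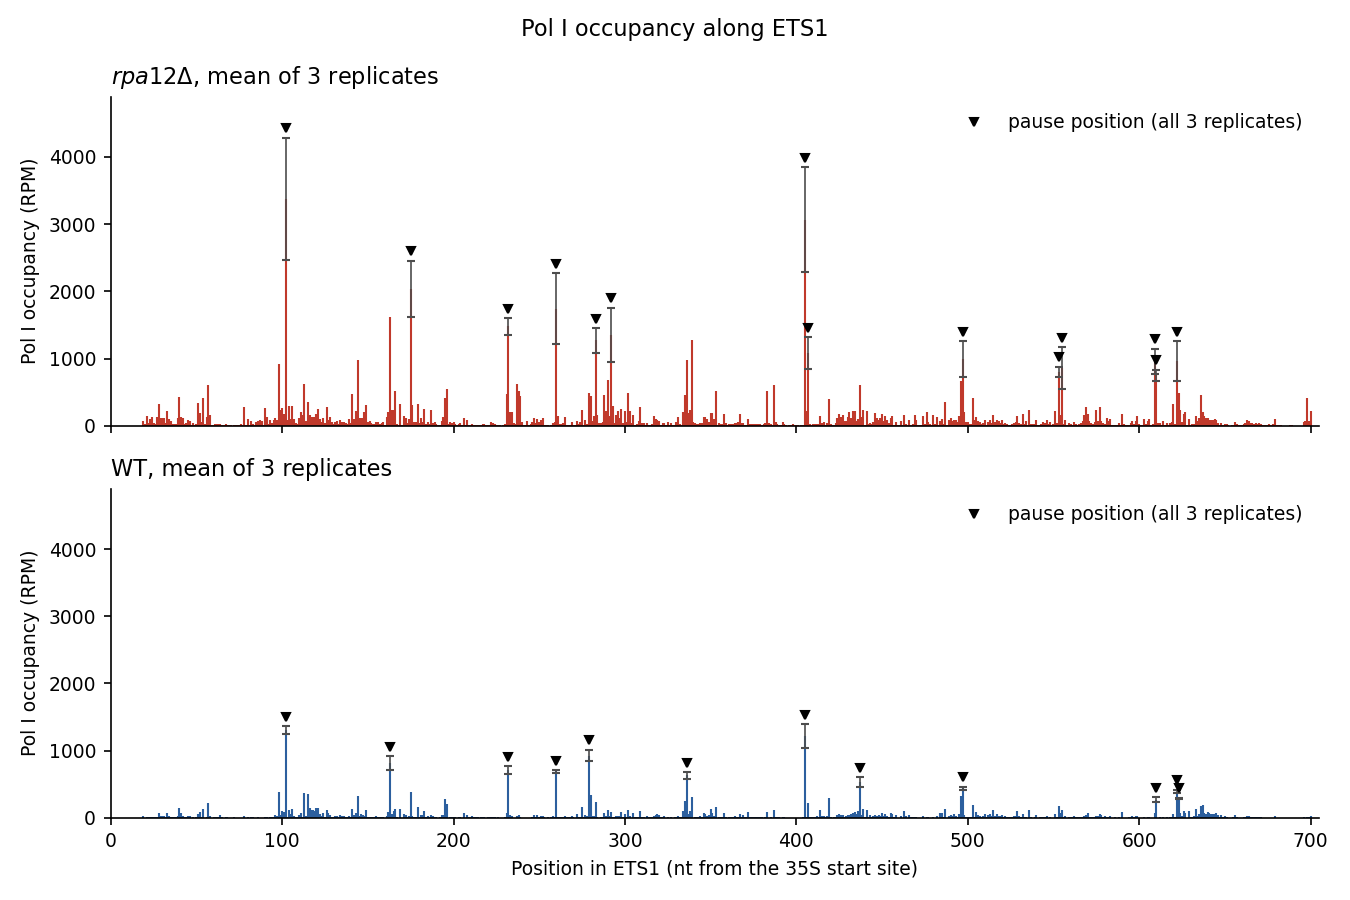
Mean occupancy in RPM (vertical axis, same scale in both panels) at each position of ETS1 (horizontal axis, nt from the start site), with *rpa12Δ* in the upper panel and WT in the lower, and triangles and error bars (SD, n = 3) at pause positions. Positions 102 and 405 were the highest of both strains, at 3380 and 3068 RPM in *rpa12Δ* and 1306 and 1220 RPM in WT.

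Position 102, at coordinate 467468, was the highest position of ETS1 in both strains. Its occupancy was 2332, 3838 and 3970 RPM in *rpa12Δ*, against 1346, 1334 and 1239 RPM in WT, a log2 difference of 1.33 (SE 0.19, adjusted p = 6.17e-06, limma). Position 405, at 467165, came next in both strains. It had 2255, 3806 and 3143 RPM in *rpa12Δ*, against 1017, 1312 and 1331 RPM in WT, a log2 difference of 1.31 (SE 0.18, adjusted p = 7.48e-06). At these positions the *rpa12Δ* libraries were all higher than the WT libraries, with *rpa12Δ* replicate 1 the lowest of its strain at both.

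To set a position apart from the general shift, a pause index was taken as its log2 occupancy minus the log2 median of the 50 nt on each side. The pause index was called higher in *rpa12Δ* at 148 ETS1 positions and lower at 175, with 241 of the 564 not called. Of the 564, 151 had passed the filter through *rpa12Δ* alone and 0 through WT alone. The choice of tested positions was thus not neutral between strains, and the calls were not counted without the 151. Over the gene, 17.6% of tested positions were called higher and 18.3% lower, against 26.2 and 31.0% in ETS1. The other spacers also lay above the gene's shares, with 31.2 and 26.1% in ITS1, 24.3 and 26.5% in ITS2 and 41.3 and 21.3% in ETS2. The shares were 13.2 and 13.9% in 18S, 12.1 and 21.5% in 5.8S and 17.0 and 17.3% in 25S. At the tested positions, the local pattern of ETS1 differed between strains in both directions. The index of position 102 was 5.49 in *rpa12Δ* and 6.00 in WT and that of position 405 was 6.31 in *rpa12Δ* and 6.28 in WT, and neither difference passed the test (adjusted p = 0.0597 and 0.938).

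A pause position was defined as one whose occupancy was at least 10 RPM and above the mean plus 3 SD of the 100 nt on each side, in all 3 libraries of a strain. ETS1 had 14 pause positions in *rpa12Δ* and 12 in WT, which was 2.48 and 2.13% of its tested positions, against 1.43 and 1.67% over the gene. In single libraries there were 17, 14 and 17 in *rpa12Δ*, against 12, 12 and 14 in WT. The strains shared 7, which was 50.0% of those of *rpa12Δ* and 58.3% of those of WT. Over the whole 35S gene they shared 64 of 91 in *rpa12Δ* (70.3%) and of 106 in WT (60.4%). Set against 50 nt on each side in place of 100, ETS1 had 17 pauses in *rpa12Δ* and 17 in WT, of which 13 were shared. All 19 pause positions together held 26.5 to 30.4% of ETS1 ends in *rpa12Δ* libraries and 30.6 to 31.4% in WT libraries. The definition sets a position against its neighbours, and both counts change with the number of SD required.

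**Figure D4:**
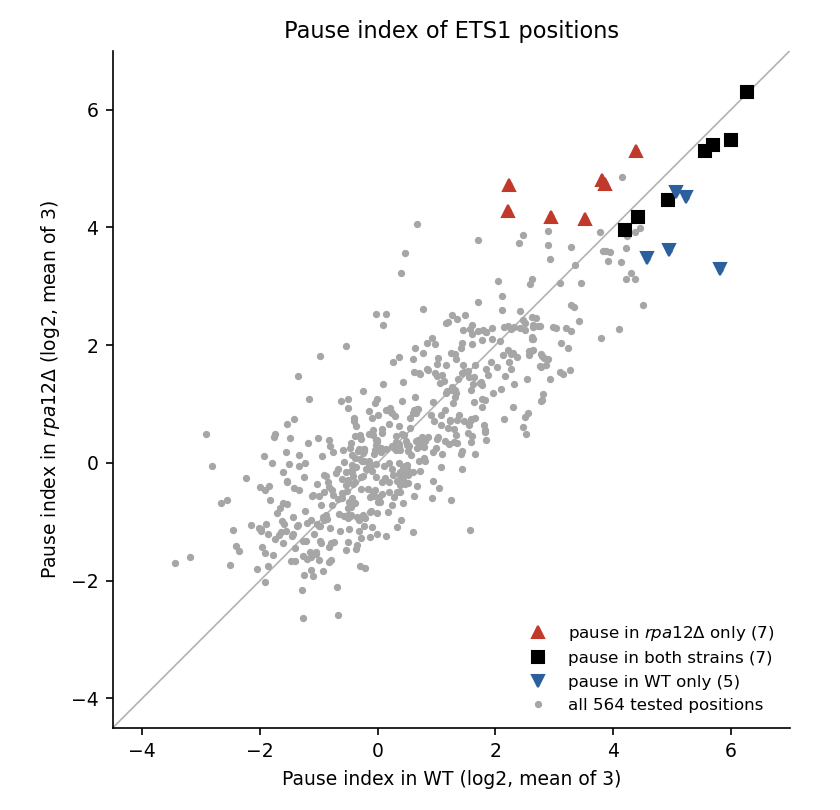
Pause index of each tested ETS1 position in *rpa12Δ* (vertical axis, log2, mean of 3) against its pause index in WT (horizontal axis, log2, mean of 3), with the line of equality. The 7 pauses found only in *rpa12Δ* (triangles up) lie above the line, the 5 found only in WT (triangles down) lie below it, and the 7 shared ones (squares) lie near it. The shared positions 102 and 622 (−0.51 and −0.46) lie about as far below it as position 163 (−0.46), a pause found only in WT.

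The shared pauses were positions 102, 232, 260, 405, 497, 610 and 622. Position 232 had 1417, 1623 and 1398 RPM in *rpa12Δ*, against 730, 649 and 753 RPM in WT. Position 260 had 1225, 2278 and 1730 RPM in *rpa12Δ*, against 678, 683 and 714 RPM in WT. Position 497 had 685, 1179 and 1117 RPM in *rpa12Δ*, against 460, 417 and 447 RPM in WT. All 7 were higher in *rpa12Δ* by log2 differences of 1.06 (position 232) to 1.48 (position 610), and none of their pause indices passed the test. With distinct intervals counted once, all 7 differences were negative, from −0.38 (position 102) to −0.076 (position 610). That count is limited by the number of read lengths.

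The pauses found only in *rpa12Δ* were positions 175, 283, 292, 407, 553, 555 and 609, and none of them was a pause in any single WT library. Position 292, at coordinate 467278, changed most in occupancy. It had 900, 1667 and 1495 RPM in *rpa12Δ*, against 88.9, 79.3 and 75.5 RPM in WT, a log2 difference of 4.00 (SE 0.18, adjusted p = 1.87e-12, limma), and its pause index was 4.73 in *rpa12Δ* and 2.24 in WT (log2 difference 2.49, adjusted p = 1.27e-05). In rank it was 7 of ETS1 in *rpa12Δ* and 81 in WT, and the lowest *rpa12Δ* library exceeded the highest WT library more than 10-fold. Position 175, of rank 3 in *rpa12Δ*, had 1568, 2197 and 2355 RPM there, against 376, 389 and 380 RPM in WT, a log2 difference of 2.39 (SE 0.16, adjusted p = 2.31e-10). Position 283 had 1108, 1241 and 1470 RPM in *rpa12Δ*, against 243, 210 and 244 RPM in WT, a log2 difference of 2.44 (SE 0.14, adjusted p = 5.11e-11). These positions stood above their surroundings in WT as well, with WT pause indices of 4.38 at position 175 and 3.86 at position 283, but did not pass the threshold of the definition there.

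Several of these pauses lay 2 nt apart, so that their surroundings are shared. Position 407 follows the shared pause at 405, and had 813, 1272 and 1148 RPM in *rpa12Δ*, against 182, 247 and 243 RPM in WT. Position 553 had 756, 756 and 889 RPM in *rpa12Δ*, against 167, 187 and 167 RPM in WT. Position 555 had 520, 906 and 1136 RPM in *rpa12Δ*, against 133, 98.2 and 108 RPM in WT. At all 3 positions the strains were apart in every library and the pause index was higher in *rpa12Δ*, by 1.00, 0.61 and 1.24 (adjusted p = 0.0029, 0.00592 and 0.00703).

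The pauses found only in WT were positions 163, 279, 336, 437 and 623. Position 279, at coordinate 467291, was the single ETS1 position called lower in *rpa12Δ*. It had 495, 530 and 441 RPM in *rpa12Δ*, against 938, 834 and 1004 RPM in WT, a log2 difference of −0.92 (SE 0.14, adjusted p = 1.74e-05, limma). Its rank in ETS1 was 33 in *rpa12Δ* and 3 in WT, and its pause index was 3.29 in *rpa12Δ* and 5.81 in WT, a log2 difference of −2.51 (SE 0.16, adjusted p = 5.6e-06). This position lies 4 nt before position 283 and 13 nt before position 292, which were higher in *rpa12Δ*. Position 279 was the highest of the 3 in every WT library and the lowest of the 3 in every *rpa12Δ* library.

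The other WT pauses were not lower in *rpa12Δ*. Position 336 had 826, 997 and 1120 RPM in *rpa12Δ*, against 595, 689.5 and 612 RPM in WT, yet its pause index was lower there, by 0.71 on the log2 scale (adjusted p = 0.00925). That call was lost with a pseudocount of 10 RPM (−0.37, adjusted p = 0.082) and with 25 nt on each side (−0.48, adjusted p = 0.072). Position 437 had 406, 706 and 714 RPM in *rpa12Δ*, against 446, 575 and 569 RPM in WT. Its strains overlapped in occupancy and the difference did not pass the test (log2 difference 0.16, adjusted p = 0.48), though it was called higher without *rpa12Δ* replicate 1 (0.43, adjusted p = 0.0097, limma), while its pause index was 3.62 in *rpa12Δ* and 4.94 in WT (adjusted p = 0.00102). Position 163 was a pause in 2 and position 623 in 1 of the 3 *rpa12Δ* libraries. Position 163 had 1742, 1182 and 1922 RPM in *rpa12Δ*, against 742, 930 and 758 RPM in WT. Position 623 had 274, 508 and 695 RPM in *rpa12Δ*, against 289, 280 and 303 RPM in WT, so that *rpa12Δ* replicate 1 lay below every WT library. Its call as higher (log2 difference 0.66, adjusted p = 0.0171) was lost without *rpa12Δ* replicate 3, at 0.36, and without WT replicate 1 or 2, at 0.66 and 0.63. It was also lost with each of the 3 other denominators, at 0.50, 0.50 and 0.51 (adjusted p = 0.066, 0.079 and 0.081), and its lower pause index (log2 difference −1.09, adjusted p = 0.0112) lost its call with a pseudocount of 10 RPM and with reads of at least 25 nt.

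The 5 largest rises of the pause index were taken among positions where a strain averaged 50 RPM or more, a limit that all 5 passed through *rpa12Δ* alone, so that low WT values follow from the choice. Position 237 had 569, 699 and 599 RPM in *rpa12Δ*, against 28.9, 16.6 and 17.1 RPM in WT, and its pause index was 4.06 in *rpa12Δ* and 0.67 in WT (log2 difference 3.39, SE 0.22, adjusted p = 5.92e-06). Position 239 had 380, 510 and 440 RPM in *rpa12Δ*, against 26.2, 12.4 and 16.4 RPM in WT, an index difference of 3.10. In *rpa12Δ* they stood 22 and 40 in rank, and in WT 278 and 301, just after the shared pause at position 232. Position 87 had 87.9, 119 and 70.0 RPM in *rpa12Δ*, against 0.903, 4.14 and 0.712 RPM in WT, where 2 libraries were under the 3 ends taken as a floor. Its index difference was 3.39, a value that depends on the 1 RPM added before taking log2. Position 476 had 131, 228 and 245 RPM in *rpa12Δ*, against 7.22, 11.2 and 11.4 RPM in WT. Position 698 had 287, 388 and 556 RPM in *rpa12Δ*, against 16.3, 11.8 and 11.4 RPM in WT. The index of both was higher by 2.82. Positions 87 and 476, with WT means under 10 RPM, had also entered the test only through *rpa12Δ*. With distinct intervals counted once, the index differences at positions 237, 239 and 698 were 0.30, 0.49 and 0.29 and lost their calls (adjusted p = 0.23, 0.14 and 0.14, limma).

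The largest falls of the index after position 279 were at positions 115, 637, 118 and 436, with log2 differences of −1.83, −1.82, −1.73 and −1.73. The occupancy of these positions itself was not called different in the main fit. With distinct intervals, positions 115 (−0.24, adjusted p = 0.00022), 637 (−0.19, adjusted p = 0.0092) and 436 (−0.26, adjusted p = 0.0059) were called lower (limma), and position 118 was not called. Position 436 was also called lower without the 20 highest positions in the denominator (−0.34, adjusted p = 0.039). Position 115 had 347, 337 and 393 RPM in *rpa12Δ*, against 335, 382 and 335 RPM in WT. Position 637 had 196, 192 and 217 RPM in *rpa12Δ*, against 165, 206 and 224 RPM in WT. The strains overlapped at both positions, and at positions 118 and 436 as well.

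The first 18 positions had almost no read ends, with 15, 19 and 21 ends in *rpa12Δ* and 2, 2 and 0 in WT. The shortest deposited read was 20 nt, so an RNA that began at the start site and was shorter could not be counted. The first occupied stretch, positions 19 to 30, held 1121, 1181 and 1472 RPM in *rpa12Δ*, against 236, 211 and 239 RPM in WT, 5.50-fold between the means without overlap (exact permutation test, p = 0.1). Position 28 was the highest of this stretch in both strains, at 321 ± 38.3 RPM in *rpa12Δ* and 76.9 ± 5.66 RPM in WT (n = 3 each, SD). Position 40 lay higher still, at 428 ± 83.5 RPM in *rpa12Δ* and 150 ± 16.5 RPM in WT, and was chosen after its values were seen.

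Each read also shows where its RNA fragment began. As the shortest read was 20 nt, reads that ended at positions 19 to 30 had to begin before, at or close after the start site. Of the reads that ended at positions 19 to 30, 79.6 to 83.7% in *rpa12Δ* and 76.7 to 79.2% in WT began at the annotated start site or 1 nt before it. The base before the annotated site alone took 65.9, 66.0 and 58.7% in *rpa12Δ* and 64.4, 35.7 and 57.7% in WT, and the annotated site itself 13.7, 15.4 and 25.03% in *rpa12Δ* and 12.6, 41.0 and 21.4% in WT. WT replicate 2 had the largest share at the annotated site, and the strains overlapped at both bases. Among reads that ended at positions 61 to 100, fewer began at either base, 0.231 to 0.506% in *rpa12Δ* and 0.473 to 1.55% in WT. The median length of ETS1 reads was 29 to 30 nt in *rpa12Δ* libraries and 28 to 29 nt in WT libraries, so most reads that ended there could not reach back to the start site. Read length thus limits both shares. In the 50 nt before the start site there were 59, 35 and 48 ends in *rpa12Δ* and 5, 6 and 2 in WT.

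Site A0, where the first cut in ETS1 separates its 3′ part, was placed at position 610, coordinate 466960, 90 nt before 18S, from general knowledge of the site and not from an annotation in the files, so that its exact base is not known from these data. Position 610 was a pause in both strains, with 671, 838 and 748 RPM in *rpa12Δ*, against 228, 298 and 286 RPM in WT, a log2 difference of 1.48 (SE 0.15, adjusted p = 7.27e-08, limma). The position before it, 609, was a pause in *rpa12Δ* only. It had 746, 1099 and 1039 RPM in *rpa12Δ*, against 53.7, 75.8 and 74.1 RPM in WT, a log2 difference of 3.80 (SE 0.17, adjusted p = 1.22e-12). In every *rpa12Δ* library position 609 was higher than position 610, and in every WT library it was lower. The 11 positions within 5 nt of A0 summed to 2101 ± 342 RPM in *rpa12Δ* and 392.4 ± 60.3 RPM in WT (n = 3 each, SD, exact permutation test, p = 0.1). Beyond A0, positions 622 and 623 were a further adjoining pair. Position 622 had 625, 1138 and 1124 RPM in *rpa12Δ*, against 362, 415 and 396 RPM in WT, and was a pause in both strains.

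**Figure D5:**
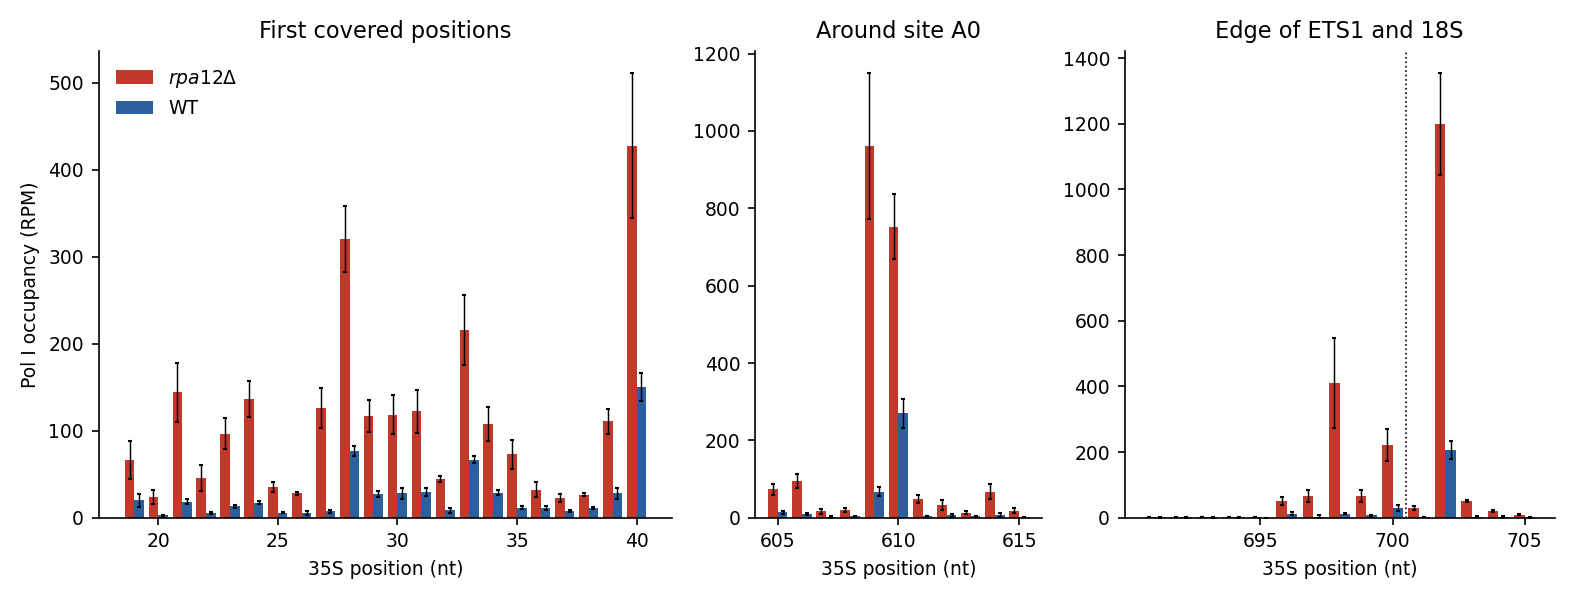
Mean occupancy in RPM (vertical axes, each from 0) at single positions (horizontal axes) from the first covered position on, around site A0 and across the edge of ETS1 and 18S (dotted line), with red bars for *rpa12Δ*, blue bars for WT and error bars for SD (n = 3). At A0 the taller bar is position 609 in *rpa12Δ* (961 RPM) and position 610 in WT (270 RPM), and at the 18S edge the tallest bar of both strains is the second base of 18S.

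Before 18S both strains had a run of positions with hardly any read ends. It covered positions 681 to 695 in *rpa12Δ*, with a mean of 3.42 RPM, and positions 680 to 695 in WT, with a mean of 1.46 RPM. In WT, low runs also lay at positions 665 to 678, 65 to 77 and 393 to 404, where the *rpa12Δ* means were under 10 RPM in no run longer than 4 nt. That limit was not scaled to the level of ETS1, which was 2.78-fold higher in *rpa12Δ* between the means, so low runs are more likely in WT. The last 5 positions, 696 to 700, held 582, 841 and 1021 RPM in *rpa12Δ*, against 63.2, 57.4 and 80.5 RPM in WT, 12.2-fold between the means without overlap (exact permutation test, p = 0.1). Position 698 was the highest of the 5 in *rpa12Δ*. In WT it was position 700, the last of ETS1, which had 222 ± 50.1 RPM in *rpa12Δ* and 29.8 ± 7.93 RPM in WT (n = 3 each, SD). The first base of 18S had 30.7 ± 5.39 RPM in *rpa12Δ* and 2.51 ± 0.949 RPM in WT, and the second 1200 ± 155 RPM in *rpa12Δ* and 207 ± 27.3 RPM in WT, so that the last positions of ETS1 stood beside a far higher position in 18S.

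On the opposite strand of ETS1 there were 277, 198 and 162 read ends in *rpa12Δ* and 80, 61 and 65 in WT, under 0.147% of the ends on the Pol I strand in every library. The base sequence at the pause positions was not analysed here.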

How the data were processed

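NET-seq maps Pol I through the RNA 3′ ends it holds. The authors trimmed and aligned the reads, and the submitters' processing notes name bcl2fastq 2.18.0.012, Trim Galore 0.4.1, BWA 0.6 and SAMtools 1.3.1. The rule for reads that fit several places is not given in the sources used here. The deposited files hold 1 read per line, with positions on the R64 build (chromosome lengths were checked against the annotation) and the aligner's mapping quality score from 0 to 60. Read 5′ ends on the positive strand, which are RNA 3′ ends, were counted here with Python 3.11.15 over 1 complete 35S copy and scaled to 1000000.

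Positions, windows of 50 nt and the pause index were tested with limma 3.58.1 (R 4.3.3, variance trend) on log2(RPM + 1), with Benjamini-Hochberg adjustment at 0.05 over the whole 35S gene, after a filter of 10 RPM for positions. Single measures were compared by a two-sided exact permutation test. The fits were also run on simulated counts with known changes, drawn without PCR copies, so that run does not cover the repeated intervals found here. A count of 3 ends, 0.696 to 0.761 RPM in *rpa12Δ* and 1.35 to 2.14 RPM in WT, was taken as the floor. The spread covers counting and library error, since PCR copies are not independent molecules.

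Named positions are the 10 highest of each strain, the 5 largest rises and falls of the pause index among called positions of at least 50 RPM that do not overlap, positions called lower, pauses, A0, and the first 30 and last 10 positions. Members and lists were chosen with earlier results of these data known. Alternatives changed the pseudocount, filter, denominator, windows, pause definition, reads, copies, test and replicates.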

Additional observations from a re-analysis of the deposited data

How the results depend on the processing

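The ETS1 share kept its direction under the 14 alternatives run for it, with a log2 difference between 0.56 (distinct intervals counted once) and 1.58, and no window was called lower under the 20 run for windows. Base shares and stretches complementary to U3 were planned and not run. Summing the partial repeat, and thinning for the share and the other single measures, were chosen after seeing the data. Positions called higher numbered 289 of the 330 tested per all reads of the file and 232 of the 256 of at least 50 RPM, where fewer positions pass the filter. They numbered 495 to 511 with 1 library left out. Positions called lower numbered 2 with a pseudocount of 10 RPM, 2 without the mature rRNA ends and 3 without the 20 highest positions in the denominator. They numbered 28 of 682 tested with distinct intervals, and 1 to 2 with 1 library left out (2 without *rpa12Δ* replicate 2 or WT replicate 1). Windows called higher were 28 of 25 nt and 7 of 100 nt, which is every window of these lengths. The pause index was called higher at 77 and lower at 84 of the 256 positions of at least 50 RPM. By the methods' t-test with Benjamini-Hochberg adjustment it was called higher at 67 and lower at 84. Per all reads it was called higher at 106 and lower at 99 of 330, since fewer positions pass 10 RPM. It was called higher at 126 to 162 and lower at 145 to 177 positions with 1 library left out. Pauses numbered 7 in *rpa12Δ* and 4 in both strains at 4 SD, 21 in WT and 12 in both strains at 2 SD, and 17 in *rpa12Δ*, 17 in WT and 13 in both strains against 50 nt on each side. With distinct intervals they numbered 0 in *rpa12Δ*, 0 in WT and 0 in both, and the median position of the ETS1 ends lay 6.33 nt further along in *rpa12Δ*.

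Same-numbered libraries did not deviate together over the 35S positions (r = 0.0871, −0.0588 and −0.0859), so the numbers were not taken to pair the samples. With the replicate number as a block, 510 positions were called higher, the pause index was called higher at 153 and lower at 174 positions, and 14 windows were called higher.

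Distinct intervals turned the log2 difference in occupancy at position 102 (−0.38), 115 (−0.24), 118 (−0.15), 163 (−0.31), 175 (−0.16), 232 (−0.36), 260 (−0.30), 283 (−0.26), 336 (−0.28), 339 (−0.078), 405 (−0.30), 407 (−0.087), 437 (−0.31), 497 (−0.22), 610 (−0.076), 622 (−0.16), 623 (−0.070) and 637 (−0.19). They turned the pause index at 175 (−0.84), 283 (−1.13), 292 (−0.60), 407 (−0.83), 553 (−0.75), 555 (−0.73) and 609 (−0.41). Each position can then hold no more intervals than there are read lengths. Other denominators turned occupancy at positions whose difference was not called. Without the mature rRNA ends it was −0.13 at 115, −0.0057 at 118, −0.00058 at 437 and −0.13 at 637, and without the 20 highest positions −0.13, −0.0055, −0.00036 and −0.13. Per all reads it was −0.11 at 115 and −0.11 at 637. Without *rpa12Δ* replicate 3 it was −0.032 at 115 and −0.020 at 637, and at 637 it was −0.093 without WT replicate 1 and −0.0060 with reads of at least 25 nt, while leaving out 1 library gave at most 0.099 at 115 and 0.13 at 637. The other comparisons of single positions comprised 858 that kept direction and call, 15 that lost the call (at positions 237, 239, 336, 553, 555, 623 and 698) and 7 that gained it (at positions 163, 436 and 437). Among those turned by distinct intervals, the occupancy of positions 115, 437 and 637, not called in the main fit, was called lower.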
